A study of Mus musculus with 8 samples.

Results

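Nr2f1, Nr2f2 and Nr2f6 encode the COUP-TFs of the mouse, and they are described here in fluorescent cells sorted from the cochlear nucleus, the hindbrain station that receives input from the auditory nerve. The 3 genes were found by matching Ensembl identifiers to gene symbols among the 39017 genes of the deposited count table. All 3 were measured and all 3 passed the filter on low counts. They were taken up with the difference between mutant and wild type libraries already known, so their levels and fold changes are a description to which no test is attached.

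COUP-TFs are orphan members of the nuclear receptor superfamily, transcription factors with a zinc finger domain that binds paired copies of the hexamer AGGTCA. They act mostly as repressors and can compete for such sites with retinoid receptors or pair with retinoid X receptors. In the mouse, Nr2f1 (COUP-TFI) is known for patterning the areas of the neocortex and for development of the cochlea. Nr2f2 (COUP-TFII) is known for the migration of inhibitory interneurons of the forebrain and for the identity of veins. Nr2f6 (EAR2) is the most divergent of them and is needed in the mouse for formation of the locus coeruleus.

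The 4 mutant libraries came from embryos labelled Hoxa2+/fl and Hoxb2fl/fl, and the 4 wild type libraries from embryos without these conditional alleles. The driver Math1::Cre and the reporter Rosa tdTomato were common to both groups, as were the strain, C57BL/6, and the stage, E18.5. The design text gives the conditional Hoxa2 allele of the mutants as homozygous, in disagreement with the sample titles. Math1, also called Atoh1, is active in the rhombic lip, so the reporter marks cells descended from that zone and recombination is limited to them. For each library 30000 cells were sorted after tissue of 3 littermates had been pooled, and each library came from a separate mother. The study asked what Hoxa2 and Hoxb2, which set segment identity in the embryonic hindbrain, do in this subset of cochlear nucleus cells.

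Libraries are named by group and by the running number in the column headings, mutant 1 to 4 and wild type 5 to 8. Total counts lay between 26299105 and 51118195 in mutant libraries, and between 24789043 and 40050010 in wild type libraries. Of the targeted genes Hoxb2 had 208, 97, 194 and 210 counts in mutant 1 to 4, against 1456, 1198, 1311 and 1538 counts in wild type 5 to 8. Unless stated otherwise, levels are CPM, counts relative to the library total after scaling by TMM, a method explained below. Hoxa2 did not separate the groups, with 11.1 to 47.9 CPM in mutant libraries and 30.7 to 55.0 CPM in wild type libraries. All 13 listed markers of Math1-lineage neurons were detected, and those with the highest CPM were the granule cell factors Zic1, at a mean of 3372 CPM in mutant and 2593 CPM in wild type libraries, and Neurod1, at 1785 CPM in mutant and 1689 CPM in wild type libraries. Atoh1 itself averaged 61.5 CPM in mutant and 89.9 CPM in wild type libraries. The first principal component over the 500 most variable genes held 56.8% of their variance and did not follow the genotype: mutant 1 (12.2), wild type 5 (19.1) and wild type 6 (19.5) had positive scores, and the other 5 libraries had scores of -2.87 or less. Results that rest on these 3 libraries are given with and without them.

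The members resemble one another in their coding sequence, most of all Nr2f1 and Nr2f2. In the GENCODE M21 annotation of GRCm38 the longest coding sequences had 1260 bases for Nr2f1, 1242 bases for Nr2f2 and 1170 bases for Nr2f6. Aligned bases were identical at 83.6% between Nr2f1 and Nr2f2, at 73.5% between Nr2f1 and Nr2f6 and at 71.4% between Nr2f2 and Nr2f6. The stretch below is the longest run of bases that Nr2f1 and Nr2f2 share, 59 bases, with its counterpart in Nr2f6, and it is shown because reads that fall in such a run cannot be assigned to either gene. Capitals mark the 45 bases that are the same in all 3 genes. The stretches lie on the minus strand of GRCm38 at chr13:78198284-78198342 (Nr2f1), chr7:70360052-70360110 (Nr2f2) and chr8:71381060-71381118 (Nr2f6).
Nr2f1: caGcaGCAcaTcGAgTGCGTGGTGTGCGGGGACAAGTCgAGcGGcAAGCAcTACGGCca
Nr2f2: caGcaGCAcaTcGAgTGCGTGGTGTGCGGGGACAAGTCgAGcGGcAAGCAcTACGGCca
Nr2f6: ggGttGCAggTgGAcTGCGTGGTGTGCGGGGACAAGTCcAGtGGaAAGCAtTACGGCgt
Such sharing was rare over whole transcripts: of 3178 different 30-base words in the longest coding transcript of Nr2f1, 41 also occurred in that of Nr2f2 and 0 in that of Nr2f6. The length of the sequenced reads and the treatment of reads that match more than 1 place are not given in the sources used here.

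Nr2f2 was the member that separated the groups. The gene (ENSMUSG00000030551) lies on the minus strand of chromosome 7, 70351944 to 70366735, in GRCm38. Raw counts were 24727, 22506, 50400 and 32402 in mutant 1 to 4, against 22994, 14002, 16212 and 19523 in wild type 5 to 8. After scaling by TMM, which sets the libraries to a common level by a trimmed mean of gene ratios, the level was 809, 886, 978 and 874 CPM in mutant 1 to 4, against 590, 544, 463 and 494 CPM in wild type 5 to 8. Every mutant library lay above every wild type library, with a gap between mutant 1, the lowest mutant, and wild type 5, the highest wild type. The mean was 887 ± 69.7 CPM in mutant and 523 ± 55.9 CPM in wild type libraries (SD, n = 4 each). The fitted log2 fold change was 0.76 (approximate SE 0.113), or 1.70-fold higher in mutant libraries. Counting error was small beside the spread between libraries: in wild type 6, which had the fewest Nr2f2 counts, the exact 95% binomial interval was 556 to 574 CPM, relative to the unscaled total.

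Over the whole table, edgeR's quasi-likelihood test with Benjamini-Hochberg adjustment called 70 of 19494 tested genes at an adjusted p below 0.05, which is 0.359% of them, and 28, or 0.144%, were higher in mutant libraries. Nr2f2 was the only member of the 3 among these calls. In 3.23% of tested genes all mutant libraries lay above all wild type libraries, and Nr2f2 was the only member of the 3 to do so. The call ended without mutant 2, without mutant 4 or without wild type 8. Since the members were chosen on this contrast, nothing is read from either count.

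**Figure D1:**
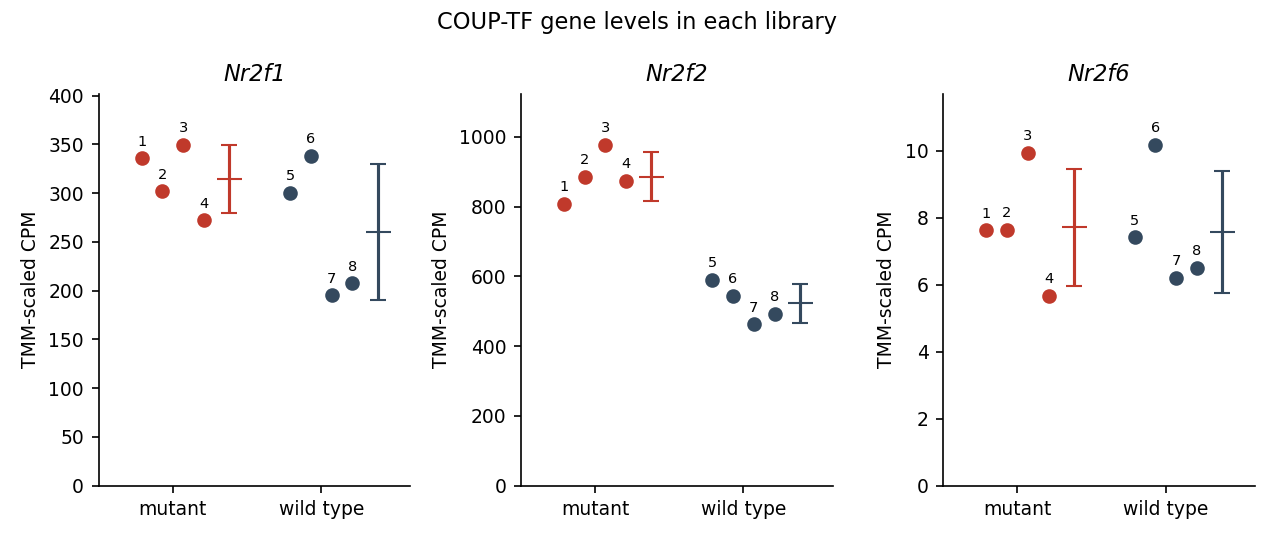
Level of each COUP-TF gene as TMM-scaled CPM (linear axes from 0), with 1 point for each library, its number beside it, mutant left of wild type, and the mean ± SD of the 4 libraries at the right of each group. The groups do not overlap for Nr2f2 and overlap for Nr2f1 and Nr2f6.

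Nr2f1 was uneven among wild type libraries. The gene (ENSMUSG00000069171) lies on the minus strand of chromosome 13, 78188973 to 78199757. Raw counts were 10259, 7668, 18018 and 10079 in mutant 1 to 4, against 11699, 8700, 6832 and 8212 in wild type 5 to 8. The level was 336, 302, 350 and 272 CPM in mutant 1 to 4, against 300.2, 338, 195 and 208 CPM in wild type 5 to 8. Wild type 5 and 6 lay within the range of the mutants, whereas wild type 7 and 8 lay below every mutant library. The mean was 315 ± 34.9 CPM in mutant and 260.3 ± 69.9 CPM in wild type libraries (SD, n = 4 each), and the fitted log2 fold change was 0.27 (SE 0.173). Within groups the coefficient of variation of Nr2f1 was 11.1% in mutant and 26.8% in wild type libraries, and that of Nr2f2 was 7.86% in mutant and 10.7% in wild type libraries. Nr2f1 depended on the 3 libraries with a positive first component more than Nr2f2 did: when mutant 1 and wild type 5 and 6 were left out, the log2 fold change was 0.62 (SE 0.146) for Nr2f1 and 0.94 (SE 0.133) for Nr2f2. Single libraries also moved Nr2f1 by more than 1.5 times, to 0.43 without wild type 6 and to 0.16 without wild type 7. It was 0.18 without wild type 8.

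Nr2f6 was scarce and showed no separation of the groups. The gene (ENSMUSG00000002393) lies on the minus strand of chromosome 8, 71374123 to 71381960. Raw counts were 233, 194, 512 and 210 in mutant 1 to 4, against 289, 262, 217 and 257 in wild type 5 to 8. The level was 7.62, 7.64, 9.94 and 5.67 CPM in mutant 1 to 4, against 7.42, 10.2, 6.20 and 6.50 CPM in wild type 5 to 8. The highest library was wild type 6, the lowest was mutant 4, and the groups overlapped throughout. The mean was 7.71 ± 1.75 CPM in mutant and 7.57 ± 1.81 CPM in wild type libraries (SD, n = 4 each), with a log2 fold change of 0.03 (SE 0.215). The sign was negative in 5 of 17 alternative analyses, with a range from -0.12 to 0.30. At these counts the exact 95% binomial interval of mutant 4 was 4.63 to 6.10 CPM, relative to the unscaled total.

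Levels of different genes are compared per length, as TMM-scaled CPM per kilobase of the gene length in the deposited table (4752 bases for Nr2f1, 4863 bases for Nr2f2 and 2983 bases for Nr2f6). With these lengths the order was Nr2f2, Nr2f1, Nr2f6 in every library. GENCODE M21 gives 8625 exonic bases for Nr2f2 and 5093 for Nr2f1. The order of Nr2f2 and Nr2f1, and all places and shares per length, therefore depend on the length used. The mean of Nr2f2 was 182 ± 14.3 CPM per kilobase in mutant and 107 ± 11.5 CPM per kilobase in wild type libraries (SD, n = 4 each). That of Nr2f1 was 66.2 ± 7.34 CPM per kilobase in mutant and 54.8 ± 14.7 CPM per kilobase in wild type libraries, and that of Nr2f6 was 2.59 ± 0.585 CPM per kilobase in mutant and 2.54 ± 0.608 CPM per kilobase in wild type libraries. The lowest Nr2f2 value of any library, 95.2 CPM per kilobase in wild type 7, was above the highest Nr2f1 value, 73.6 CPM per kilobase in mutant 3. Among tested genes ordered by level per length, Nr2f2 stood between places 141 and 159 in mutant libraries and between places 223 and 360 in wild type libraries. Nr2f1 stood between places 536 and 756 in mutant and between places 531 and 1100 in wild type libraries, and Nr2f6 stood at place 10122 or lower in all 8 libraries.

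The summed level of the 3 genes was 239, 248, 278 and 239 CPM per kilobase in mutant 1 to 4, against 187, 186, 138 and 147 CPM per kilobase in wild type 5 to 8. The sum was higher in every mutant library than in any wild type library. Nr2f2 made up 69.4% to 75.3% of that sum in mutant libraries and 60.0% to 68.9% in wild type libraries. The ratio of Nr2f2 to Nr2f1 per length was 2.36, 2.87, 2.73 and 3.14 in mutant 1 to 4, against 1.92, 1.57, 2.32 and 2.32 in wild type 5 to 8. The groups did not overlap in this ratio, but mutant 1 at 2.36 lay close to wild type 7 and 8 at 2.32. This ratio does not depend on how libraries are scaled, but its size depends on the gene lengths used.

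**Figure D2:**
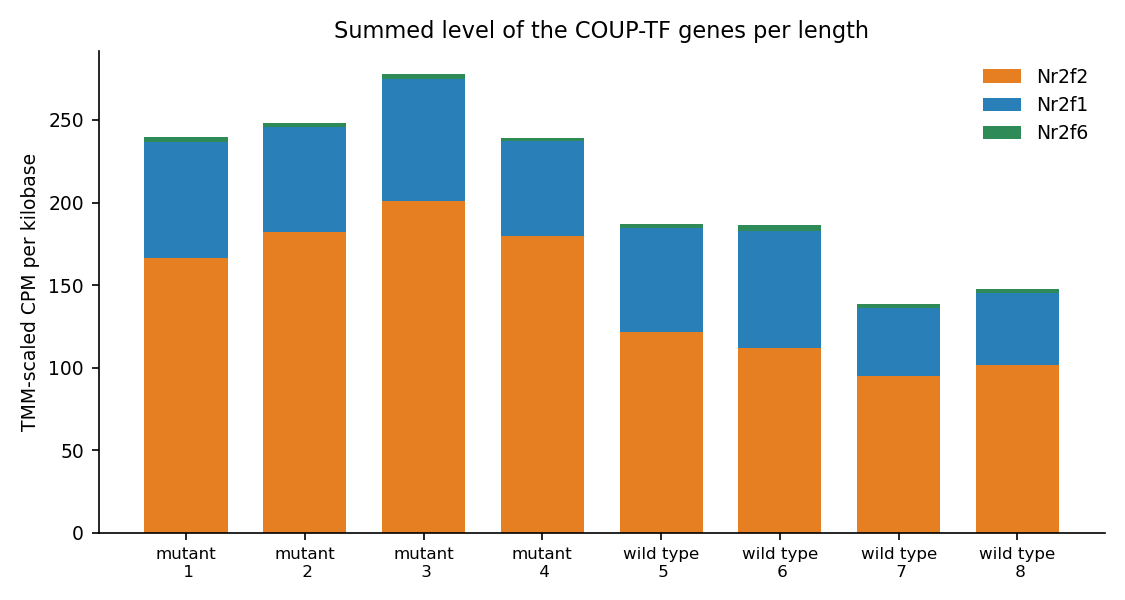
TMM-scaled CPM per kilobase of gene length, stacked for Nr2f2, Nr2f1 and Nr2f6 (bars from 0, 1 bar for each library). The sum lies between 239 and 278 in mutant libraries and between 138 and 187 in wild type libraries, and Nr2f2 is the largest part of every bar.

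The genome around the members holds genes that may share their reads, because no source used here says that strand was kept in counting. A830082K12Rik runs antisense to Nr2f1 from within it and overlaps 123 of its 5093 exonic bases. Its level was 34.8 ± 6.19 CPM in mutant and 29.7 ± 4.75 CPM in wild type libraries (SD, n = 4 each), with a log2 fold change of 0.23 (SE 0.157; adjusted p = 0.563 by edgeR). Ocel1, on the opposite strand, covers 1622 of the 2983 exonic bases of Nr2f6. Ocel1 stood at 10.3 ± 1.86 CPM in mutant and 9.98 ± 2.08 CPM in wild type libraries (SD, n = 4 each), with a log2 fold change of 0.05 (SE 0.186; adjusted p = 0.926 by edgeR). More counts were assigned to Ocel1 than to Nr2f6 in every library. Depending on how reads in the shared part were counted, the level of Nr2f6 may be too low or may hold reads of Ocel1, and this was not tested. Use1, which lies 4391 bases from Nr2f6 and does not overlap it, stood at 30.4 ± 7.71 CPM in mutant and 18.7 ± 3.16 CPM in wild type libraries, with a log2 fold change of 0.70 (SE 0.182; adjusted p = 0.149 by edgeR). The groups of Use1 did not overlap, and it passed in 3 of 17 alternatives, namely with no low count filter, with DESeq2 and without mutant 1, with an adjusted p from 0.0264 to 0.453 over the 17. Ushbp1, the other neighbour of Nr2f6, had 6 to 11 counts in mutant and 7 to 26 counts in wild type libraries and was not tested. B130024G19Rik overlaps the first part of Nr2f2 on the opposite strand, by 643 exonic bases, and was absent from the deposited table. The level of Nr2f2 may hold reads of B130024G19Rik, and this was not tested.

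Nr2f2 has 3 annotated coding transcripts in GENCODE M21, with 1242, 843 and 511 coding bases, and counts per gene do not tell them apart. The region at the start of the gene is shown because Nr2f2 is the member that differed between the groups. RefSeq's promoter window for GRCm38.p6, 250 bases before to 50 bases after the annotated start, is chr7:70366697-70366996 on the minus strand.
Nr2f2: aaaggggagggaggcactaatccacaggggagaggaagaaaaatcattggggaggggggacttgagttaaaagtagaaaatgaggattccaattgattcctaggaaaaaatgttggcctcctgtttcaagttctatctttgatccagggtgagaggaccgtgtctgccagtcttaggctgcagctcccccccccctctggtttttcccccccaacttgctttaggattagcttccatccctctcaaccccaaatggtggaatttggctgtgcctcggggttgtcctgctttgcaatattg
The window had a GC content of 49.7%, against 68% and 43% in the 2 windows of Nr2f1 and 82.7% in that of Nr2f6. It was searched on both strands for TGATNNAT, letters bound by Hox proteins together with Pbx, for TGACAG, letters bound by Meis and Pknox proteins, and for the receptor hexamer AGGTCA. None of these letters occurred in the window of Nr2f2, in either window of Nr2f1 or in the window of Nr2f6, so no capitals are marked. Of 32851 windows of the same length, 8.85% held TGATNNAT, 19.2% held TGACAG and 16.3% held AGGTCA. No other window of Nr2f2 was searched. Coding base 220 of its longest coding sequence lies at 70360110, away from this window. This position alone does not show whether the window is the start of that transcript, and that was not checked. Which transcript the cells use was not tested.

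Of the COUP-TF genes, Nr2f2 and Nr2f1 were among the nuclear receptor genes with the highest levels, and Nr2f6 stood at place 15. The superfamily list held 49 genes, the members included, of which 42 were tested. Ordered by level per deposited length, Nr2f2 led, followed by the thyroid hormone receptor Thra and then by Nr2f1, in both groups. Thra had 74.5 ± 10.5 CPM per kilobase in mutant and 64.1 ± 8.38 CPM per kilobase in wild type libraries (SD, n = 4 each), and in each group it differed from Nr2f1 by less than the larger SD of the pair. The next were Nr2c2, an orphan receptor of the same NR2 subfamily, at 17.2 ± 0.672 CPM per kilobase in mutant and 19.5 ± 1.43 CPM per kilobase in wild type libraries, and the orphan receptor Esrrg, at 17.7 ± 6.12 CPM per kilobase in mutant and 18.2 ± 4.36 CPM per kilobase in wild type libraries. Nr2f2 alone made up 42.5% to 44.6% of the summed level per length of the superfamily in mutant libraries and 31.0% to 35.8% in wild type libraries.

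Of the 39 other tested receptors none was called by edgeR over all genes, where 0.359% of tested genes were. At an unadjusted p below 0.05 there were 4 of the 39, where 12.5% of all tested genes were. DESeq2 called 1 of the 39, and it called 489 genes over the whole table. Of these 39, 14 had a positive log2 fold change, and their median was -0.08, beside a median of -0.01 over all tested genes. The smallest p belonged to Rorb, a receptor known for patterning in the retina and the cortex. Rorb had 60.7, 110.2, 59.6 and 62.8 CPM in mutant 1 to 4, against 29.6, 42.2, 37.1 and 36.7 CPM in wild type 5 to 8, and the groups did not overlap. Its log2 fold change was 1.01 (SE 0.201; adjusted p = 0.0675 by edgeR). It passed in 4 of 17 alternative analyses, namely with no low count filter, with DESeq2, with limma-voom with quality weights and without mutant 1, with an adjusted p from 0.000548 to 0.225 over the 17. The glucocorticoid receptor Nr3c1 had a log2 fold change of -0.60 (SE 0.168; adjusted p = 0.184 by edgeR) and passed without mutant 1. The liver X receptor Nr1h2 had a log2 fold change of -0.39 (SE 0.166; adjusted p = 0.363 by edgeR).

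**Figure D3:**
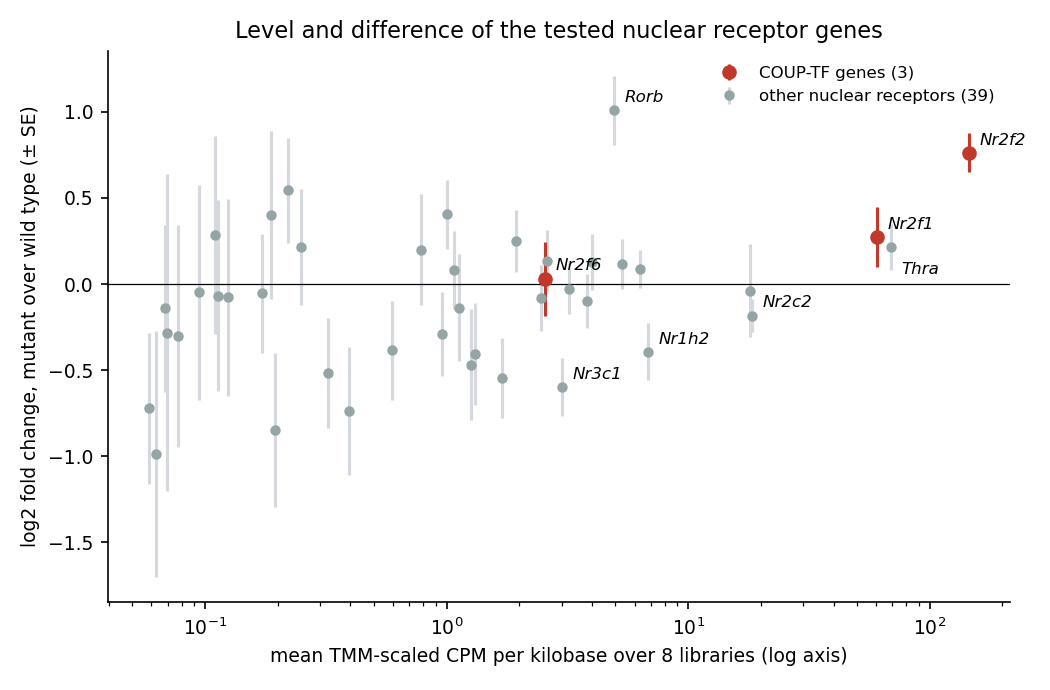
Log2 fold change of mutant over wild type (± SE) against the mean TMM-scaled CPM per kilobase over 8 libraries (log axis) for the 42 tested nuclear receptor genes, with the 3 COUP-TF genes in red. Nr2f2 stands at the right at 0.76, and among the other 39 Rorb is highest at 1.01 and Nr3c1 is at -0.60.

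Of the other 4 genes of the NR2 subfamily, Nr2c1, Nr2c2 and Nr2e3 were tested and none was called. Nr2c2 had a log2 fold change of -0.18 (SE 0.0947; adjusted p = 0.448 by edgeR) and Nr2c1 had 0.09 (SE 0.112; adjusted p = 0.768 by edgeR). Nr2e3, a photoreceptor gene, had 2 to 23 counts in mutant and 3 to 17 counts in wild type libraries, and the neural stem cell receptor Nr2e1 had 0 to 5 counts in mutant and 4 to 19 counts in wild type libraries and was not tested. The retinoic acid and retinoid X receptors, the possible partners and competitors of COUP-TFs, had log2 fold changes between -0.74 for Rxrg (SE 0.372; adjusted p = 0.442 by edgeR) and 0.40 for Rara (SE 0.198; adjusted p = 0.431 by edgeR).

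Of 11 listed cofactors of COUP-TFs all were tested and none was called, beside 0.359% of all tested genes. None had an unadjusted p below 0.05, beside 12.5% of all tested genes, and none was called with DESeq2 or in any of the other 16 alternatives. Their median log2 fold change was -0.03. Zfpm2 (FOG2), a corepressor, had a log2 fold change of 0.42 (SE 0.258; adjusted p = 0.526 by edgeR). The corepressor Ncor1 stood at 469 ± 15.5 CPM in mutant and 517 ± 18.3 CPM in wild type libraries (SD, n = 4 each), a log2 fold change of -0.14 (SE 0.0914; adjusted p = 0.542 by edgeR). Ncor1 was the only 1 of the 11 whose groups did not overlap. All its mutant libraries lay below all wild type libraries, as in 2.93% of tested genes. The homeobox factor Prox1, a partner of Nr2f2 in lymphatic endothelium, had a log2 fold change of -0.37 (SE 0.245; adjusted p = 0.557 by edgeR).

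Of 10 genes reported elsewhere to respond to loss or gain of Nr2f1 or Nr2f2 in mouse tissues, 9 were tested, 1 fell and 8 did not pass, where 0.215% of all tested genes were called lower. An unadjusted p below 0.05 was found for 2 of the 9, beside 12.5% of all tested genes. The median log2 fold change of the 9 was -0.31, and 3 of them were positive. The list was not divided by the direction of the reported response. The median, the signs and the call are therefore not read as activation or repression. Eya1, a transcriptional coactivator of ear and kidney development, was at 6.15, 4.57, 3.80 and 4.13 CPM in mutant 1 to 4, against 12.5, 11.0, 12.5 and 13.7 CPM in wild type 5 to 8. Every mutant library was below every wild type library, as in 2.93% of tested genes, and Eya1 fell by 1.42 on the log2 scale (SE 0.181; adjusted p = 0.00619 by edgeR). This call held in all 17 alternatives, with an adjusted p of at most 0.0364. The list was put together with this fall already known.

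Nr2f2 and Nr2f1 are also expressed by cells other than Math1-lineage neurons, so markers of such cells were summed for each library as TMM-scaled CPM. In bulk libraries, fewer cells of a type and less RNA per cell cannot be told apart. The 6 endothelial markers summed to 5.63 to 13.9 CPM in mutant and 6.75 to 19.1 CPM in wild type libraries. The 6 pericyte and smooth muscle markers summed to 8.09 to 18.0 CPM in mutant and 10.4 to 24.3 CPM in wild type libraries, and the 7 markers of meningeal fibroblasts to 3.15 to 7.03 CPM in mutant and 2.53 to 11.4 CPM in wild type libraries. None of the tested genes of these 3 lists was called. A positive log2 fold change was found for 3 of 6 endothelial and 2 of 6 pericyte and smooth muscle markers. None of the 4 tested meningeal markers had one. The part of these cells in the level of Nr2f2 was not tested. The 8 markers of inhibitory neurons summed to 77.7 to 116 CPM in mutant and 65.9 to 92.6 CPM in wild type libraries. Of these, 6 of 7 tested had a positive log2 fold change and none was called. Gad1, an enzyme of GABA synthesis, had 9.16, 37.9, 19.9 and 33.0 CPM in mutants 1 to 4 and 5.59, 8.98, 11.6 and 19.0 CPM in wild types 5 to 8. The groups of Gad1 overlapped, with a log2 fold change of 1.14 (SE 0.483; adjusted p = 0.385 by edgeR). The glycine transporter gene Slc6a5 averaged 30.1 ± 5.96 CPM in mutant and 17.4 ± 6.01 CPM in wild type libraries (SD, n = 4 each), with a log2 fold change of 0.78 (SE 0.255; adjusted p = 0.266 by edgeR) and all mutant libraries above all wild type libraries, as in 3.23% of all tested genes. Lhx1, a homeobox factor of these neurons, had 36.0, 12.7, 14.5 and 9.77 CPM in mutants 1 to 4 and 31.3, 60.8, 33.9 and 32.9 CPM in wild types 5 to 8. Its sign was opposite to that of the other 6, with a log2 fold change of -1.12 (SE 0.420; adjusted p = 0.333 by edgeR) and groups that overlapped through mutant 1. Lhx1 passed in 3 of 17 alternatives, namely with voom quality weights, without mutant 1, and with that library and wild types 5 and 6 all left out, with an adjusted p from 0.00738 to 0.621 over the 17. The part of inhibitory neurons in the level of Nr2f2 was not tested.

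The 8 markers of astrocytes and radial glia summed to 507, 381, 206 and 215 CPM in mutant 1 to 4, against 341, 465, 375 and 338 CPM in wild type 5 to 8. Mutant 1 and wild type 6 had the highest sums, and Nr2f1 stood at 336 CPM in mutant 1 and 338 CPM in wild type 6. Mutant 3, with the highest level of Nr2f1, had the lowest sum of these markers. The 6 endothelial markers were highest in wild type 6 and wild type 5, the wild type libraries in which Nr2f1 was high. Their sum was lowest, at 5.63 CPM, in mutant 3, where Nr2f1 was highest. The part of these cells in the level of Nr2f1 was not tested. The 13 Math1-lineage markers summed to 5614 to 8277 CPM in mutant and 5643 to 6829 CPM in wild type libraries, most of it from Zic1 and Neurod1. Of the 13, 4 had a positive log2 fold change. Beside 0.215% of all tested genes, 1 of the 13 was called lower. This was Nhlh1, which encodes a transcription factor of differentiating neurons, at 46.3 ± 6.85 CPM in mutant and 89.1 ± 5.57 CPM in wild type libraries (SD, n = 4 each), which fell by 0.95 on the log2 scale (SE 0.119; adjusted p = 0.00603 by edgeR) and passed in all 17 alternatives. The log2 fold change was -0.67 for Barhl2 (SE 0.164), -0.55 for Atoh1 (SE 0.545) and -0.37 for the glutamate transporter gene Slc17a6 (SE 0.140), with adjusted p of 0.123, 0.701 and 0.315 by edgeR. For Barhl2 all mutant libraries lay below all wild type libraries, as in 2.93% of tested genes. Barhl2 passed in 4 of 17 alternatives, with an adjusted p from 0.0171 to 0.383 over the 17. The 7 markers of the oligodendrocyte lineage summed to 71.8 to 84.5 CPM in mutant and 71.0 to 102 CPM in wild type libraries. The 6 microglial markers summed to 10.4 to 16.5 CPM in mutant and 14.0 to 18.0 CPM in wild type libraries. Most of this was Csf1r, at 11.4 CPM in mutant and 10.9 CPM in wild type libraries on average. Of 4 tested, 1 had a positive log2 fold change and 1 was called lower, where 0.215% of all tested genes were. The called gene was C1qa, at 0.203 CPM in mutant and 2.35 CPM in wild type libraries. Its log2 fold change was -3.45 (SE 0.500; adjusted p = 0.0115 by edgeR), and it passed in 12 of 16 alternatives. The 6 markers of choroid plexus and ependyma summed to 462 to 624 CPM in mutant and 502 to 823 CPM in wild type libraries, of which Otx2 made up 496 CPM in mutant and 618 CPM in wild type libraries on average, whereas the defining choroid gene Ttr was at 2.45 CPM in mutant and 1.36 CPM in wild type libraries. The 5 erythroid markers summed to 5.12 to 6.90 CPM in mutant and 4.63 to 10.6 CPM in wild type libraries, and Hba-a1 and Hba-a2 were at 0 in all 8 libraries.

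The genes most like each member across the 8 libraries were found by the root mean square difference between log2 CPM profiles, each centred on its own mean, among the 10483 genes whose average log2 CPM was 3 or more. The nearest to Nr2f2 were the histone gene Hist2h2be (difference 0.128), the immune receptor gene Sirpa (0.129) and the small GTPase gene Arl4a (0.145), where the median gene differed by 0.434. Sirpa was at 18.6, 22.9, 19.2 and 21.6 CPM in mutant 1 to 4, against 15.6, 13.2, 10.1 and 11.6 CPM in wild type 5 to 8. Like Nr2f2, Sirpa had wild type 5 as its highest and wild type 7 as its lowest wild type library. The nearest genes were picked for likeness over the same 8 libraries, so a shared order of libraries is not a further result. The nearest to Nr2f1 were the actin crosslinker gene Actn1 (0.0700), Adamtsl1 (0.106) and Rbm12b2 (0.121). Actn1 was at 22.1, 17.9, 21.1 and 16.2 CPM in mutant 1 to 4, against 18.6, 18.6, 11.4 and 12.7 CPM in wild type 5 to 8, and its wild type libraries were split in the same way. The nearest to Nr2f6 were Hprt (0.101), the nucleolar gene Npm1 (0.102) and the Ran-binding gene Ranbp1 (0.102). Hist2h2be and Npm1 have close copies elsewhere in the genome, so their counts are uncertain.

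**Figure D4:**
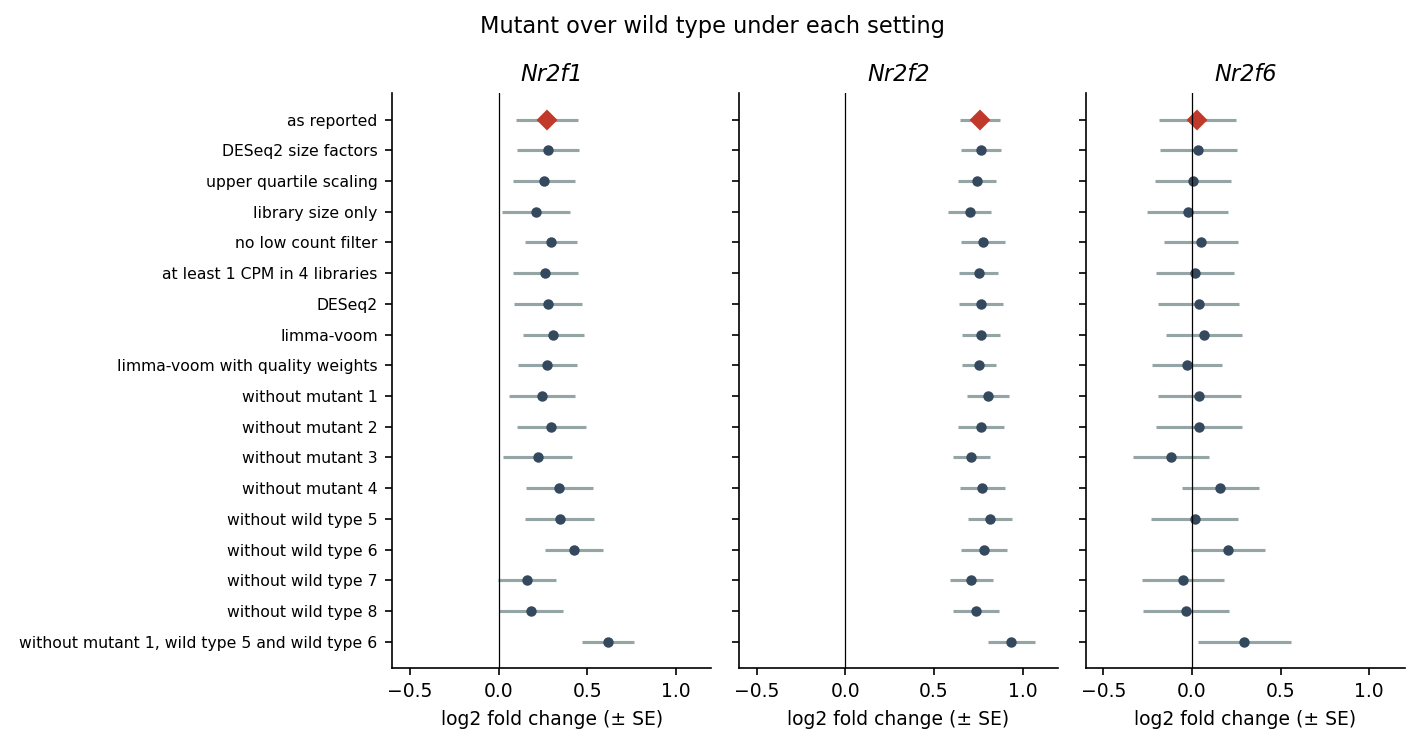
Log2 fold change of mutant over wild type (± SE) for each COUP-TF gene as reported (red diamond) and under 17 alternative settings (points), with a line at 0. Nr2f2 lies between 0.70 and 0.94, Nr2f1 lies between 0.16 and 0.62, and Nr2f6 lies on both sides of 0.

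Nr2f2 had a positive log2 fold change under every scaling and tool that was run. The value lay between 0.70, with library sizes only, and 0.94, when mutant 1 and wild type 5 and 6 were left out. Over the 8 analyses that each left out 1 library it lay between 0.71 and 0.82. Nr2f1 had a positive log2 fold change in all 17 alternatives and was called in none. All these analyses reuse the libraries on which the members were chosen, so nothing further is read from their signs or calls.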

How the data were processed

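RNA was sequenced from sorted tdTomato-positive cochlear nucleus cells in 4 mutant and 4 wild type libraries. Per the labels' protocols, the TotalScript kit was used on 2 ng of RNA, with poly-A and random priming and 14 PCR cycles, and the pool of 8 libraries filled 3 HiSeq2500 lanes. The authors deposited 1 table of unnormalised read counts for Ensembl genes, with a width column that gives each gene's length, per the file headers. Base calls came from bcl2fastq 1.8.4 and the build was mm10, per the submitters' processing notes. The aligner, counter and annotation are not given in the sources used here. Of 39017 genes, 37607 were matched to a symbol.

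Column headings show the group but not the replicate number of the sample titles, so columns were assigned to a group only. Counts were filtered by filterByExpr, scaled by TMM and tested in R 4.3.3 with edgeR 4.0.16 (quasi-likelihood F test, robust, no covariate), with Benjamini-Hochberg adjustment over 19494 genes and a threshold of 0.05. The biological coefficient of variation came to 23.2%. Standard errors are approximate: the size of the log2 fold change over the root of F. Log2 CPM used a prior count of 2. The test was tested on simulated data with known changes. DESeq2 1.42.0, limma 3.58.1, other scalings and filters, and the removal of libraries were the alternatives. Binomial intervals at 95% are exact (Clopper-Pearson) and cover counting error only, since PCR copies are not independent molecules.

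The members, gene lists and alternatives were chosen with earlier results of these data known. The genes named are the members, tested genes that overlap them or lie within 10 kb, Hoxa2 and Hoxb2, the called genes of each list or else the 3 with the smallest p, the 5 receptors with the highest level per length, the other NR2 genes, the extremes of the retinoid receptors, and the 3 genes most like each member. Individual marker genes were named after their values were seen.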

Additional observations from a re-analysis of the deposited data

Results flagged for a closer look

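Of 114 groups of 4 libraries examined, 7 held a library that stood apart from the other 3. Chance would mark about 1 in 20 of independent groups. These groups are not all independent, since Otx2 is also most of the choroid plexus and ependyma sum. A library was judged by its gap to the nearest library as a share of the whole range. In none of the 3 COUP-TF genes did a library stand apart in this way. Rorb was at 110.2 CPM in mutant 2, against 59.6 to 62.8 CPM in the other mutant libraries (share 0.937). Lhx1 was at 60.8 CPM in wild type 6, against 31.3 to 33.9 CPM in the other wild type libraries (share 0.910). Otx2 was at 609 CPM in mutant 3, against 449 to 468 CPM in the other mutant libraries (share 0.883). Neurod1 was at 1806 CPM in wild type 5, against 1634 to 1660 CPM in the other wild type libraries (share 0.848). The summed markers of meningeal fibroblasts were at 7.03 CPM in mutant 1, against 3.15 to 3.67 CPM in the other mutant libraries (share 0.866). The summed markers of choroid plexus and ependyma were at 624 CPM in mutant 3, against 462 to 485 CPM in the other mutant libraries (share 0.856). Hoxb2 was at 46.6 CPM in wild type 6, against 37.4 to 38.9 CPM in the other wild type libraries (share 0.834).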

How the results depend on the processing

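The log2 fold changes of the members moved by less than the spread between replicates in all alternatives but 1: with mutant 1 and wild type 5 and 6 left out, Nr2f1 was at 0.62 and Nr2f2 at 0.94. With single libraries left out, Nr2f2 ranged from 0.71 to 0.82, Nr2f1 from 0.16 to 0.43 and Nr2f6 from -0.12 to 0.20. The count of genes called over the whole table, 70, was 489 with DESeq2, 214 with no low count filter, 233 with limma-voom with quality weights and 171 with those 3 libraries left out, and ranged from 26 (without mutant 4) to 544 (without mutant 1) with single libraries left out; the cause was not tested. Among other nuclear receptors the count, 0, was 1 (Rorb) with DESeq2, with no low count filter and with limma-voom with quality weights, and ranged from 0 to 2 with single libraries left out, the 2 being Rorb and Nr3c1 without mutant 1. Counts for cofactors (0) and reported targets (1) did not change in the 17 alternatives. Leaving out a library lowers the number of samples as well as changing their make-up. No paired analysis was possible because the column headings carry no replicate number shared between the groups. Nr2f6 had the fewest counts of the 3 genes, 194 to 512 counts in mutant and 217 to 289 counts in wild type libraries, whose coefficient of variation between libraries was 22.6% in mutant and 23.9% in wild type libraries.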
